A study of Homo sapiens with 23 samples.

Results

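Hypoxia and glycolysis genes are described here as a set of 42 genes in a mammary epithelial cell line. They are 24 genes of glucose uptake, glycolysis and pyruvate use, 16 other targets of the hypoxia-inducible factors (HIF) and the 2 HIF alpha subunits HIF1A and EPAS1. A gene was kept where the array annotation gave its symbol to a probe that was detected above background (detection p under 0.05) on at least 5 of 23 arrays, and its brightest probe stood for it. Of the 42 genes, 40 had a named probe and 39 were tested, among 10954 genes tested in all. Those were 23 of the glycolysis genes, 14 of the other HIF targets and both alpha subunits. The lactate exporter gene SLC16A3 and the carbonic anhydrase gene CA9 were not analysed here, because no probe was named for them. The only probe of the prolyl hydroxylase gene EGLN3 was detected on 3 arrays, under the limit.

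The MCF10A line came from human breast epithelium, grows without limit and does not form tumours by itself. RNA was measured on Illumina bead arrays, with 6 for ErbB2* 3D, 5 for WT 3D, 6 for ErbB2* 2D and 6 for WT 2D, where 3D and 2D are the kinds of culture. WT is the line labelled MCF10A WT, and ErbB2* is the line labelled MCF10A/ErbB2*, named for the receptor tyrosine kinase gene ERBB2. The labels do not describe the construct, how many clones the line holds, the 3D matrix, the days in culture or any oxygen level, and nothing says whether replicates were cultured separately, so a p-value reflects only how these arrays vary. The design holds a single ErbB2* line, so the receptor and other differences between the lines cannot be told apart. Fewer cells with a transcript and less of it per cell cannot be told apart in these bulk samples.

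WT 3D replicate 5 stood apart before any gene was tested. Its mean scanner signal was 150.6 and 19.1% of its probes were detected, against 30.9% to 34.6% on the other 22 arrays. Its title, source and description place it in WT 3D, while its cell line field reads ErbB2*. The authors' deposited normalized values for it ranked probes differently from its scanner signals, with a rank correlation of 0.503, against 1 on the other arrays, and correlated at 0.985 to 0.989 with the other WT 3D columns over 3217 bright probes. Its normalized scanner values, which the fit used, correlated at only 0.567 to 0.590 with the other WT 3D arrays. With arrays of the other groups they correlated at 0.498 to 0.592. The array was kept in its titled group, and the counts of called members and of called genes in the further lists, the medians of the member groups and many single values are also given without it. Where no such value is given, the value is that with all arrays. Several abundant glycolytic transcripts read near background on that array: ALDOA gave a log2 signal of 4.70, against 13.40 to 13.57 on the other WT 3D arrays. Among mammary epithelial markers 11 of 15 were tested, and all 11 were detected on most arrays of each group. The log2 of their summed signal was 13.77 to 14.19 in ErbB2* 3D, 14.26 to 14.45 in WT 3D, 13.43 to 13.71 in ErbB2* 2D and 14.45 to 14.94 in WT 2D. Of the fibroblast markers 6 of 10 were tested, with a log2 summed signal of 13.26 to 13.48 in ErbB2* 3D, 11.54 to 11.77 in WT 3D, 12.47 to 12.62 in ErbB2* 2D and 11.92 to 12.03 in WT 2D. COL1A2, COL3A1, PDGFRB and THY1 did not pass the detection limit, while COL1A1, COL6A3, DCN, LUM, PDGFRA and FAP did. The adipocyte sum (5 of 8 tested) was 11.56 to 11.80 in ErbB2* 3D, 8.39 to 9.35 in WT 3D, 10.54 to 10.88 in ErbB2* 2D and 8.78 to 9.13 in WT 2D, with ADIPOQ and PLIN1 under the limit. The leukocyte sum (5 of 11) was 11.09 to 11.28 in ErbB2* 3D, 10.99 to 11.68 in WT 3D, 11.14 to 11.52 in ErbB2* 2D and 9.93 to 10.34 in WT 2D, with PTPRC under the limit. The endothelial sum (3 of 9) was 7.39 to 7.64 in ErbB2* 3D, 6.55 to 7.07 in WT 3D, 7.56 to 7.86 in ErbB2* 2D and 6.84 to 7.51 in WT 2D, with CDH5 and VWF under the limit. Called markers, higher then lower in ErbB2* cells in 3D, were 2 and 7 epithelial, 3 and 1 fibroblast and 3 and 0 adipocyte. Leukocyte markers gave 1 and 1 there and endothelial markers 1 and 0 (22.3% of all genes called). In 2D they were 1 and 9 epithelial, 1 and 2 fibroblast, 3 and 0 adipocyte, 2 and 1 leukocyte and 1 and 0 endothelial (13.1% called). The part of other cell types in the results below was not tested.

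Glycolysis splits glucose into pyruvate in the cytosol, and lactate dehydrogenase regenerates the NAD+ that the pathway consumes. HIF is a pair of proteins: an alpha subunit that prolyl hydroxylases mark for destruction when oxygen is present, and the stable partner ARNT. In low oxygen the alpha subunit persists, binds short promoter and enhancer sequences, and raises the transcription of glucose transporters, glycolytic enzymes, angiogenic peptides and mitophagy receptors. The alpha subunits are controlled largely at the level of the protein, so the level of their transcripts is not a reading of HIF activity. Many HIF targets also respond to growth factor, nutrient and stress signals.

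Promoters of 4 members, chosen after their values were seen, are printed below. Each is called in both directions across the comparisons, as are other members not printed, among them SLC2A1, PFKM, PFKFB4 and NDRG1. The windows run from 250 bases before to 50 bases after a RefSeq transcription start on GRCh38.p14, 5′ to 3′ on the gene's strand. Capitals mark the core of the HIF binding motif as ACGTG or GCGTG on either strand (CACGT and CACGC are the same words read on the other strand), and CACGTG holds ACGTG on both strands.

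CA12: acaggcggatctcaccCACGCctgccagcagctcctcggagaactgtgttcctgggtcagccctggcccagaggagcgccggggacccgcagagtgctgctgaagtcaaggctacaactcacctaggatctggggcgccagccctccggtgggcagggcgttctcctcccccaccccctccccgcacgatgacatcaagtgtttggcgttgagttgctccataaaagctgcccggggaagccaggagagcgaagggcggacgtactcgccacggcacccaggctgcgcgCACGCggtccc
ADM: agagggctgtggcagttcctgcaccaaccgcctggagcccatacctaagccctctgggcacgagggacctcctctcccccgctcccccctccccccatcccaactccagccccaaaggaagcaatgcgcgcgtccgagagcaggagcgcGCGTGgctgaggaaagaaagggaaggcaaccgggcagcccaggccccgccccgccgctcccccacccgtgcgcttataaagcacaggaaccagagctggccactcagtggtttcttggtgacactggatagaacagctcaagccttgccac
BHLHE40: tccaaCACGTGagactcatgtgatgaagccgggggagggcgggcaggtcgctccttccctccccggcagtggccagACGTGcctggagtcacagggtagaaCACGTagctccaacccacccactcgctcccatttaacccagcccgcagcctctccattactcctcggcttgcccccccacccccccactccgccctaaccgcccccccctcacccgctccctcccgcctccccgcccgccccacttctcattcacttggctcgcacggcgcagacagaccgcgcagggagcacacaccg
ALDOC: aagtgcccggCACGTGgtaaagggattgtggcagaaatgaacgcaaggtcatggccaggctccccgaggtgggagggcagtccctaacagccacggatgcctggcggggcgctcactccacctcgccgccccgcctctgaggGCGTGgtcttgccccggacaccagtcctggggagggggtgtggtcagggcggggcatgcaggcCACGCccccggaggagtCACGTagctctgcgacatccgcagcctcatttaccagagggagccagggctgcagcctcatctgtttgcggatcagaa

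The CA12 window lies at chr15:63381797-63382096 on the minus strand and holds GCGTG 2 times and ACGTG 0 times. The ADM window (chr11:10304823-10305122, plus strand) holds GCGTG 1 time and ACGTG 0 times. The BHLHE40 window (chr3:4979187-4979486, plus strand) holds ACGTG 4 times and GCGTG 0 times, and the ALDOC window (chr17:28576846-28577145, minus strand) holds ACGTG 3 times and GCGTG 2 times. RefSeq windows were matched for 38 members, 68 windows in all. ACGTG stood in 27 of the 68 (39.7%), against 21.4% of 35116 windows of all genes. GCGTG stood in 30 of the 68 (44.1%), against 36.5% of all windows. Base composition was not matched, several windows belong to the same gene, and a match is a description of these letters and not of binding.

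Taken over the whole set, the members were called more often as higher than as lower in ErbB2* cells in 2D, and in ErbB2* cells more often as lower than as higher in 3D than in 2D. Between ErbB2* and WT cells in 3D, 9 members rose and 10 fell. The fit called 22.3% of all genes there, 11.6% higher and 10.7% lower. In 2D 12 members rose in ErbB2* cells and 1 fell, against 13.1% of all genes called, 7.78% higher and 5.33% lower. Going by culture, 10 members were higher and 7 lower in 3D than in 2D in WT cells (29.6% of all genes called, 14.3% higher and 15.3% lower). In ErbB2* cells 3 were higher and 10 lower in 3D (22.4% called, 10.3% higher and 12.1% lower). The interaction, the ErbB2* against WT difference in 3D minus that in 2D, was called for 16 members, 4 positive and 12 negative (15.1% of all genes, 6.73% positive and 8.33% negative). The 12 of 39 members called higher in ErbB2* cells in 2D are a larger share than that of all genes called higher. Members were chosen with earlier results of these data known, so this share describes the set and does not test it.

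Without WT 3D replicate 5 the counts were 12 higher and 8 lower for ErbB2* against WT in 3D (27.7% of all genes called, 13.7% higher and 14% lower), 21 higher and 1 lower in 2D (23.2%, 12.8% higher and 10.5% lower), 11 higher and 10 lower for 3D against 2D in WT cells (33.7%, 17.1% higher and 16.6% lower), 5 higher and 16 lower in ErbB2* cells (36.2%, 17.1% higher and 19.2% lower), and 5 positive and 14 negative interactions (21.5%, 9.75% positive and 11.7% negative). All 4 groups share 1 estimate of spread, so that array also bears on comparisons it does not enter. The arrays did not overlap between ErbB2* and WT in 3D for 14 of 39 members (14.8% of all genes) and in 2D for 15 (11.8%). They did not overlap between 3D and 2D for 13 members in WT cells (16.3%) and for 14 in ErbB2* cells (19.9%). Scaling each array to a common median in place of quantile normalisation moved the median of all genes to 0.40 for ErbB2* against WT in 3D, 0.20 in 2D, -0.34 for 3D against 2D in WT cells, -0.14 in ErbB2* cells and 0.19 for the interaction. The split of all called genes was then 1141 higher and 141 lower for ErbB2* against WT in 3D, 483 and 151 in 2D, 202 and 1065 for 3D against 2D in WT cells, 317 and 585 in ErbB2* cells, and 248 and 82 for the interaction. Called members were then 10 higher and 1 lower between the lines in 3D, 7 and 0 in 2D, 2 and 6 by culture in WT cells, 0 and 4 in ErbB2* cells, and 1 and 3 for the interaction. With median scaling and without WT 3D replicate 5, the medians were 0.026, 0.20, 0.0049, -0.14 and -0.17 in that order, and the members called were 10 and 4, 26 and 0, 8 and 6, 4 and 15, and 4 and 14.

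**Figure D1:**
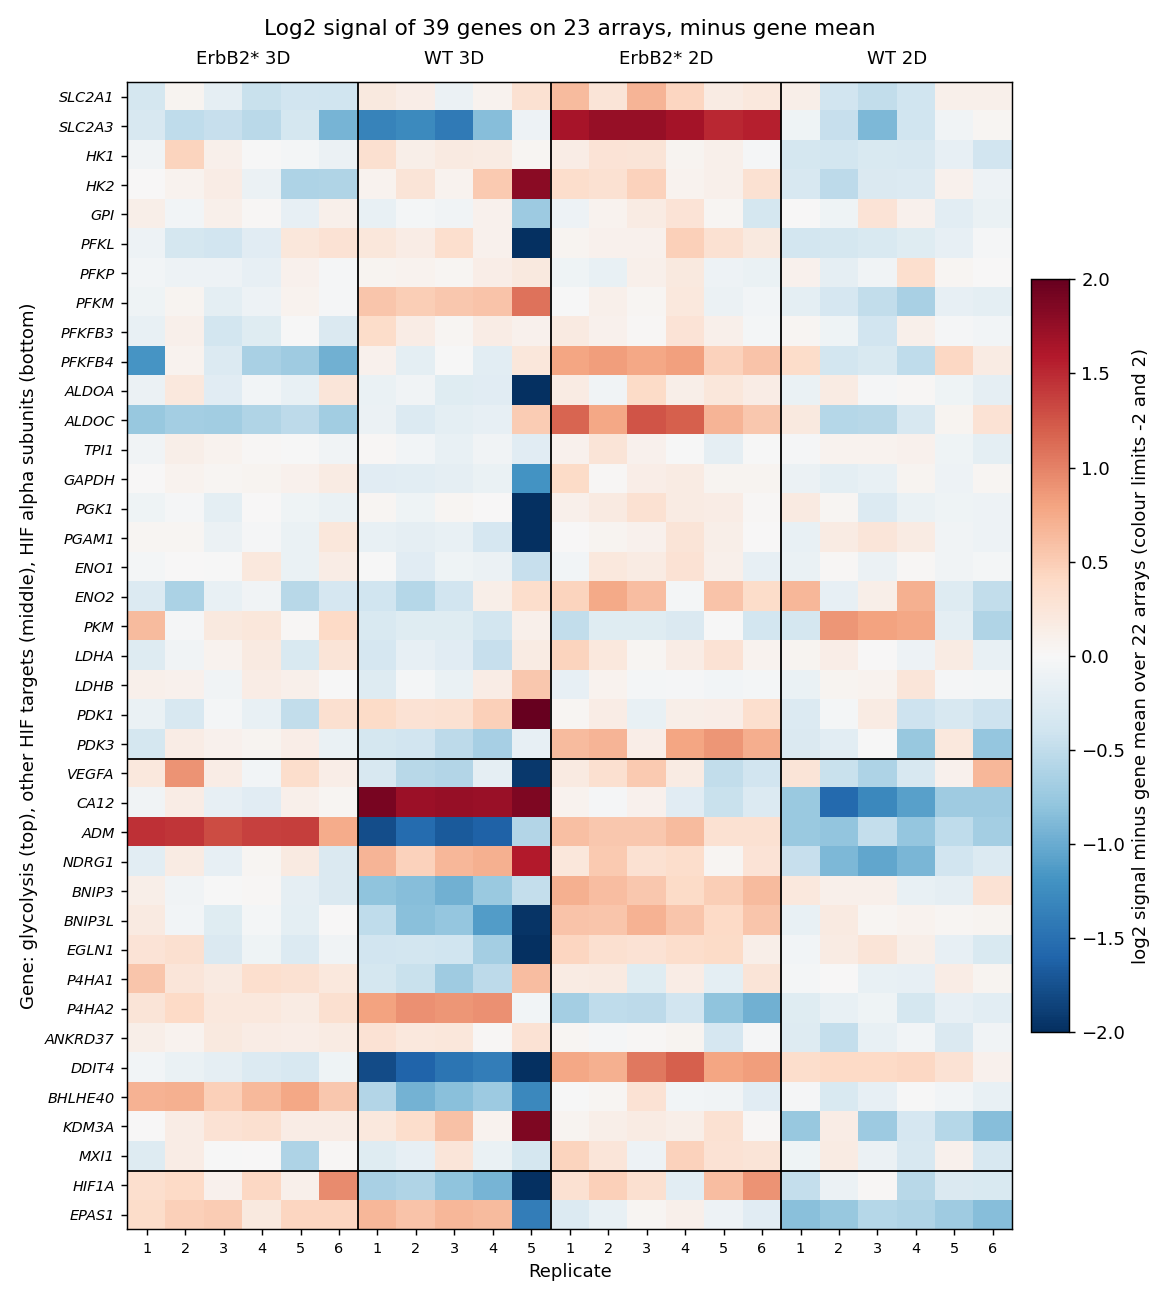
Log2 signal of the 39 tested members (rows) on the 23 arrays (columns, by group and replicate number), each minus the gene's mean over the 22 arrays other than WT 3D replicate 5. Red is above that mean and blue below it, with the colours ending at 2 log2 units either way. SLC2A3 is red on all ErbB2* 2D arrays, CA12 on all WT 3D arrays and ADM on all ErbB2* 3D arrays, and the WT 3D replicate 5 column departs from the other WT 3D columns for many genes.

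In every comparison most of the 23 tested glycolysis genes were not called, and those called in 2D were all higher in ErbB2* cells. Of the 23, 7 rose in ErbB2* cells in 2D and 0 fell, with a median log2 difference of 0.22, against 0.012 over all genes. At an unadjusted limma p under 0.05, 11 passed between the lines in 3D, 9 in 2D, 7 by culture in WT cells and 8 in ErbB2* cells, in either direction. No share of all genes was computed at that cut, so these counts do not set the glycolysis genes apart. In ErbB2* cells 0 were higher and 6 lower in 3D than in 2D (median -0.22, all genes -0.02). In 3D 1 glycolysis gene rose in ErbB2* cells and 7 fell (median 0.11, all genes 0.038), and in WT cells 4 were higher and 1 lower in 3D than in 2D (median -0.11, all genes -0.058). The interaction was positive for 1 and negative for 9 (median -0.096, all genes 0.019). Shares of all genes called were 22.3% between lines in 3D, 13.1% in 2D, 29.6% by culture in WT cells and 22.4% in ErbB2* cells. For the interaction the share was 15.1%. Without WT 3D replicate 5 the called counts, higher then lower, were 3 and 5 between the lines in 3D, 11 and 0 in 2D, 5 and 2 by culture in WT cells, 0 and 10 in ErbB2* cells, and 1 and 10 for the interaction. Of all genes 27.7%, 23.2%, 33.7%, 36.2% and 21.5% were then called, in that order. The medians of the glycolysis genes were then -0.03 (all genes -0.013) between the lines in 3D, 0.22 (0.012) in 2D, -0.046 (-0.0093) by culture in WT cells, -0.22 (-0.02) in ErbB2* cells and -0.40 (-0.02) for the interaction, so the 3D median took the opposite sign.

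Glucose enters the cell through transporters, and both tested ones were highest in ErbB2* cells in 2D. For SLC2A3, the gene of the high-affinity transporter GLUT3, the log2 signals were 6.40, 6.85 and 7.02 (lowest, median and highest) on the ErbB2* 3D arrays, against 6.0, 6.07, 5.93, 6.48 and 7.23 on WT 3D replicates 1 to 5. They were 8.83, 8.99 and 9.08 on the ErbB2* 2D arrays, against 6.43, 7.09 and 7.38 on the WT 2D arrays. Every ErbB2* 2D array lay above every array of the other groups, while the groups overlapped in 3D. SLC2A3 differed between ErbB2* and WT cells by 1.96 (SE 0.186, adjusted p = 3.86e-08) in 2D, and by 0.47 (SE 0.195, adjusted p = 0.0864) in 3D, where it passed without WT 3D replicate 5 at 0.70 (adjusted p = 0.00137). In 3D it was lower than in 2D in ErbB2* cells, by a log2 difference of -2.16 (SE 0.186, adjusted p = 6.37e-09), and in WT cells, at -0.68 (SE 0.195, adjusted p = 0.0117). The interaction was -1.48 (SE 0.27, adjusted p = 0.000455). SLC2A1 encodes GLUT1, the widespread basal transporter. Its signals were 9.05, 9.12 and 9.55 in ErbB2* 3D and 9.68, 9.63, 9.38, 9.56 and 9.80 in WT 3D, and 9.65, 9.83 and 10.17 in ErbB2* 2D and 9.0, 9.34 and 9.61 in WT 2D. The 2D groups did not overlap, ErbB2* being higher, and the 3D groups did. The log2 difference between the lines was -0.40 (SE 0.14, adjusted p = 0.0415) in 3D and 0.55 (SE 0.134, adjusted p = 0.00563) in 2D. Its 3D value was -0.36 (adjusted p = 0.0689) without WT 3D replicate 5, and under median scaling with all arrays it turned to 0.20. Median scaling without that array did not turn its sign. By culture SLC2A1 was lower in 3D in ErbB2* cells, at -0.68 (SE 0.134, adjusted p = 0.000562), and gave 0.28 (adjusted p = 0.138) in WT cells.

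Hexokinases trap glucose by phosphorylation. HK1, the housekeeping form, had signals of 12.89, 12.98 and 13.46 in ErbB2* 3D and 13.32, 13.12, 13.19, 13.17 and 13.05 in WT 3D, and 12.99, 13.14 and 13.28 in ErbB2* 2D and 12.63, 12.68 and 12.85 in WT 2D. The WT 2D arrays lay below all arrays of the other groups. HK1 was accordingly higher in ErbB2* than in WT cells in 2D, by 0.45 (SE 0.0933, adjusted p = 0.00155), and higher in 3D than in 2D in WT cells, by 0.47 (SE 0.0978, adjusted p = 0.000856), with -0.11 (adjusted p = 0.442) between the lines in 3D. Another HK1 probe gave 0.22 (adjusted p = 0.801) in 2D and 0.033 (adjusted p = 0.956) by culture in WT cells, neither called. HK2, the HIF-responsive form, read 7.37, 7.94 and 8.13 in ErbB2* 3D, against 8.06, 8.24, 8.06, 8.51 and 9.79 in WT 3D, and 8.06, 8.29 and 8.45 in ErbB2* 2D, against 7.46, 7.71 and 8.08 in WT 2D. Its groups overlapped in both cultures. The HK2 difference was -0.73 (SE 0.233, adjusted p = 0.0274) in 3D (-0.41 without WT 3D replicate 5) and 0.50 (adjusted p = 0.162) in 2D. Another HK2 probe gave 0.72 in 3D and an interaction of 0.50, against -1.23 for the brightest probe, so the sign depended on the probe. Without that array the other probe gave 0.074 and -0.15. By culture in WT cells HK2 was higher in 3D at 0.78 (adjusted p = 0.0144), and 0.47 without it. GPI, which isomerises glucose 6-phosphate, was called in no comparison, with log2 differences between -0.17 and 0.20.

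Phosphofructokinase commits sugar to glycolysis. Of its 3 subunit genes PFKM alone was called with all arrays. PFKM, the muscle-type subunit, had signals of 9.45, 9.59 and 9.71 in ErbB2* 3D, against 10.21, 10.14, 10.19, 10.22 and 10.74 in WT 3D. In 2D it read 9.53, 9.67 and 9.86 in ErbB2* cells and 9.0, 9.39 and 9.48 in WT cells. All 5 WT 3D arrays lay above every other array. PFKM was lower in ErbB2* than in WT cells in 3D, by a log2 difference of -0.70 (SE 0.114, adjusted p = 6.95e-05), and higher in 2D, by 0.37 (SE 0.109, adjusted p = 0.0246). In WT cells it was higher in 3D than in 2D, by 0.99 (SE 0.114, adjusted p = 6.07e-07), and in ErbB2* cells the difference was -0.083 (adjusted p = 0.676). PFKL, the liver-type subunit, was called in no comparison with all arrays, its WT 3D replicate 5 reading 4.81, against 8.23 to 8.48 on the other WT 3D arrays. Without that array PFKL was higher in ErbB2* cells in 2D, at 0.44 (adjusted p = 0.0059), higher in 3D in WT cells, at 0.44 (adjusted p = 0.00892), and lower in 3D in ErbB2* cells, at -0.29 (adjusted p = 0.0487). PFKP, the platelet-type subunit, was called in none, with log2 differences from -0.16 up to 0.064.

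The bifunctional enzymes PFKFB3 and PFKFB4 set the level of fructose 2,6-bisphosphate, an activator of phosphofructokinase. PFKFB4 had signals of 7.24, 7.75 and 8.50 in ErbB2* 3D, against 8.50, 8.23, 8.41, 8.22 and 8.65 in WT 3D. It had 8.89, 9.21 and 9.26 in ErbB2* 2D, against 7.92, 8.36 and 8.84 in WT 2D. Every ErbB2* 2D array lay above every other array, and the ErbB2* 3D arrays reached the lowest values while overlapping with WT 3D. PFKFB4 was lower in 3D than in 2D in ErbB2* cells by a log2 difference of -1.33 (SE 0.187, adjusted p = 1.07e-05), against 0.017 (adjusted p = 0.958) in WT cells. Between the lines it gave -0.60 (SE 0.197, adjusted p = 0.0319) in 3D, not called without WT 3D replicate 5 at -0.54 (adjusted p = 0.0532), and 0.75 (SE 0.187, adjusted p = 0.00747) in 2D. PFKFB3 changed less: -0.32 (adjusted p = 0.0292) between ErbB2* and WT cells in 3D, where median scaling gave 0.26, and an interaction of -0.50 (adjusted p = 0.0204). Median scaling without WT 3D replicate 5 did not turn its 3D sign. Another PFKFB3 probe gave 0.049 (adjusted p = 0.824) in 3D and 0.13 (adjusted p = 0.681) for the interaction.

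Aldolase cleaves the 6-carbon sugar, and its C form, ALDOC, was highest in ErbB2* 2D. ALDOC had signals of 8.42, 8.50 and 8.66 in ErbB2* 3D, against 9.07, 8.92, 8.99, 9.03 and 9.69 in WT 3D, and 9.72, 10.16 and 10.45 in ErbB2* 2D, against 8.62, 9.05 and 9.47 in WT 2D. The ErbB2* 3D arrays lay below all WT 3D arrays, and the ErbB2* 2D arrays lay above all other arrays. ALDOC was lower in ErbB2* cells in 3D, by a log2 difference of -0.62 (SE 0.175, adjusted p = 0.0131), and higher in 2D, by 1.09 (SE 0.167, adjusted p = 4.60e-05). It was lower in 3D than in 2D in ErbB2* cells, at -1.60 (SE 0.167, adjusted p = 1.36e-07), and gave 0.11 (adjusted p = 0.671) in WT cells. The interaction of -1.71 (SE 0.242, adjusted p = 2.22e-05) was the most negative among the glycolysis genes. Its promoter, printed above, holds both motif forms.

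The brightest probes of ALDOA, TPI1, PGK1, PGAM1, ENO1, LDHA and LDHB were called in no comparison with all arrays. Another ALDOA probe was called higher in ErbB2* cells in 3D, at 0.55 (adjusted p = 0.019), and 0.33 (adjusted p = 0.0306) without WT 3D replicate 5. The other PGK1 probe was called lower in 3D than in 2D in ErbB2* cells, at -0.42 (adjusted p = 0.015). Without WT 3D replicate 5 the brightest probes of ALDOA, TPI1, PGAM1, ENO1 and LDHB were still called in none. Their log2 differences between ErbB2* and WT cells were then 0.15, 0.074, 0.21, 0.14 and 0.12 in 3D, in that order of genes, and 0.20, 0.053, 0.045, 0.14 and -0.072 in 2D. The 95% intervals with all arrays were wide for genes that read near background on that array, as for ALDOA in 3D, -0.20 to 4.02, and narrow for TPI1, -0.072 to 0.28. An uncalled gene is not thereby shown to be equal. The brightest probe of PGK1, phosphoglycerate kinase, passed without that array in 2D between the lines, at 0.22 (adjusted p = 0.0436), and by culture in ErbB2* cells, at -0.24 (adjusted p = 0.0176). The other PGK1 probe was then also called lower in 3D in WT cells, at -0.40 (adjusted p = 0.0106). There the brightest probe averaged 12.68 in 3D and 12.62 in 2D. The other PGAM1 probe was then called higher in ErbB2* cells in 2D, at 0.32 (adjusted p = 0.0461). In ErbB2* cells that PGAM1 probe was then lower in 3D, at -0.38 (adjusted p = 0.0105). LDHA, the lactate dehydrogenase subunit that HIF induces, was then lower in 3D than in 2D in WT cells, at -0.31 (adjusted p = 0.0362).

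GAPDH, often used as a loading reference, read 14.60, 14.65 and 14.75 in ErbB2* 3D and 14.35, 14.37, 14.41, 14.45 and 13.39 in WT 3D. In 2D it read 14.60, 14.68 and 14.97 in ErbB2* cells and 14.39, 14.47 and 14.64 in WT cells. The ErbB2* 3D arrays lay above all WT 3D arrays, and the 2D groups overlapped. The 3D difference was 0.46 (SE 0.14, adjusted p = 0.0201), and 0.26 (adjusted p = 0.0193) without WT 3D replicate 5, and other GAPDH probes gave 0.38 and 0.40. PKM, pyruvate kinase, read 11.95, 12.18 and 12.60 in ErbB2* 3D and 11.67, 11.73, 11.73, 11.60 and 12.06 in WT 3D, and 11.48, 11.70 and 11.96 in ErbB2* 2D and 11.36, 12.27 and 12.86 in WT 2D. The WT 2D arrays spread widely and overlapped with ErbB2* 2D. Its interaction was 0.95 (SE 0.311, adjusted p = 0.0412), and other probes gave 1.59 (adjusted p = 0.0215) and 2.17 (adjusted p = 0.169, not called). ErbB2* 2D lay below WT 2D replicates 2, 3 and 4 (12.75 to 12.86) and overlapped with replicates 1, 5 and 6 (11.36 to 11.78). The size of the PKM interaction thus varied with the WT 2D array. ENO2, the neuronal enolase, was below background on all ErbB2* 3D and all WT 3D arrays. It was detected on 5 of 6 ErbB2* 2D and 3 of 6 WT 2D arrays. Its ErbB2* 3D level was at least 1.32-fold lower than in ErbB2* 2D (adjusted p = 0.00549; measured log2 difference -0.79).

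Pyruvate dehydrogenase kinases divert pyruvate away from mitochondria by inactivating pyruvate dehydrogenase. PDK1, a HIF target, was dim: it was detected on 1 of the ErbB2* 3D arrays, all 5 WT 3D arrays, 5 of the ErbB2* 2D arrays and 2 of the WT 2D arrays. Its signals were 4.74, 5.08 and 5.54 in ErbB2* 3D, against 5.61, 5.51, 5.53, 5.71 and 7.75 in WT 3D, where replicate 5 was far above the others. The groups overlapped. The 3D difference was -0.93 (SE 0.281, adjusted p = 0.019), and -0.51 (adjusted p = 0.0071) without that array. By culture in WT cells PDK1 was higher in 3D by 1.01 (SE 0.281, adjusted p = 0.00933), or 0.59 (adjusted p = 0.00184) without it. PDK3 was higher in ErbB2* cells in 2D, with 8.57, 9.14 and 9.32 in ErbB2* and 7.66, 8.19 and 8.65 in WT cells, 2 groups that overlapped at the edge. The log2 difference was 0.95 (SE 0.159, adjusted p = 0.000148). PDK3 was lower in 3D than in 2D in ErbB2* cells, at -0.65 (SE 0.159, adjusted p = 0.00402), and its 3D difference between the lines, 0.40 (adjusted p = 0.0887), passed without WT 3D replicate 5 at 0.47 (adjusted p = 0.0452). Another PDK3 probe was called in neither of the first 2 comparisons, with 0.43 (adjusted p = 0.225) in 2D and -0.033 (adjusted p = 0.947) by culture in ErbB2* cells.

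**Figure D2:**
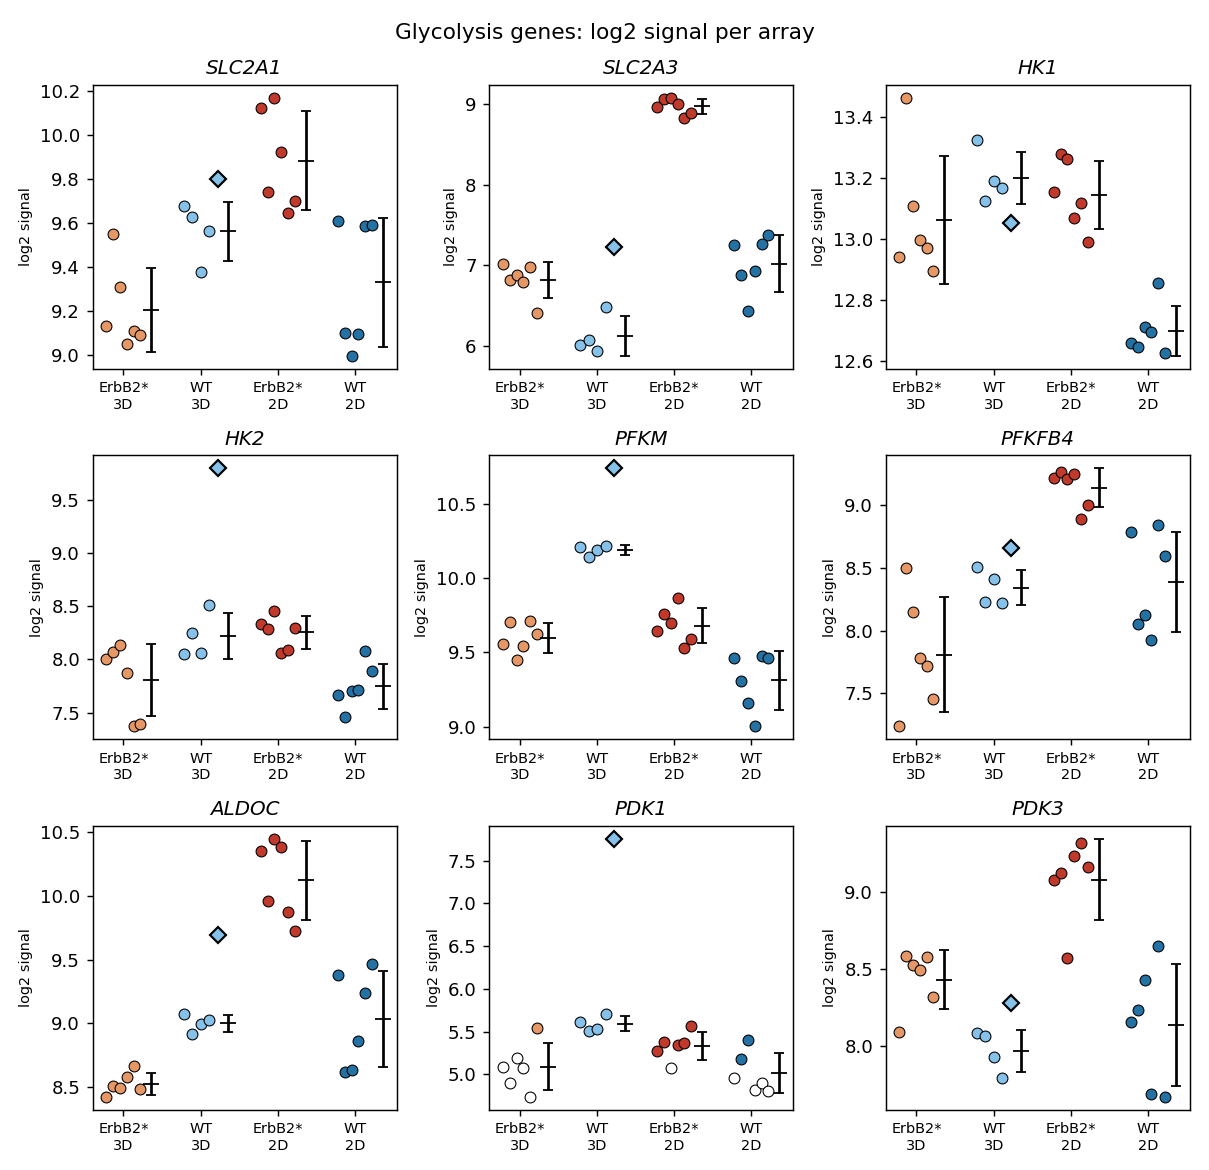
Log2 signal (vertical axis) of 9 glycolysis genes on each array, by group. Filled points were detected above background and open points were not, the diamond is WT 3D replicate 5, and the bar beside each group is the mean and SD without that array. SLC2A3, PFKFB4 and ALDOC sit highest in ErbB2* 2D, PFKM in WT 3D, and the PDK1 points are mostly open in ErbB2* 3D.

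Of the HIF alpha subunits, HIF1A was higher in ErbB2* cells in 3D and EPAS1 was higher in 3D in WT cells. HIF1A, the broadly expressed subunit, had signals of 10.58, 10.86 and 11.44 in ErbB2* 3D, against 9.85, 9.89, 9.69, 9.56 and 4.97 in WT 3D, the last being WT 3D replicate 5, where the probe was below background. In 2D it read 10.28, 10.89 and 11.40 in ErbB2* cells and 9.94, 10.20 and 10.53 in WT cells. The 3D groups did not overlap, ErbB2* being higher, and the 2D groups did. The 3D difference was 2.08 (SE 0.576, adjusted p = 0.011), and 1.13 (adjusted p = 2.88e-05) without that array, while other HIF1A probes then gave 1.48 and 1.38. In 2D HIF1A gave 0.69 (adjusted p = 0.524), and 0.69 (adjusted p = 0.00235) without that array. EPAS1 encodes HIF-2 alpha. Its signals were 11.38, 11.61 and 11.69 in ErbB2* 3D and 11.85, 11.76, 11.85, 11.82 and 9.80 in WT 3D, and 10.91, 11.06 and 11.29 in ErbB2* 2D and 10.34, 10.45 and 10.62 in WT 2D. All ErbB2* 2D arrays lay above all WT 2D arrays, and all 3D arrays except WT 3D replicate 5 lay above all 2D arrays. EPAS1 was higher in 3D than in 2D in WT cells, by 0.95 (SE 0.249, adjusted p = 0.0062), or 1.36 (adjusted p = 4.46e-11) without replicate 5, and in ErbB2* cells it passed without that array, at 0.50 (adjusted p = 3.25e-05). In 2D the lines differed by 0.62 (adjusted p = 0.0972), and by 0.62 (adjusted p = 2.95e-06) without it. The EPAS1 interaction was then -0.85 (adjusted p = 1.42e-05). In 3D the lines differed by 0.17 (adjusted p = 0.657) with all arrays, and the sign turned to -0.24 (adjusted p = 0.0571) without it.

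The other HIF targets moved in both directions. Of the 14 tested, 7 rose and 3 fell in ErbB2* cells in 3D (median log2 difference 0.65, all genes 0.038), and 5 rose and 1 fell in 2D (median 0.43, all genes 0.012). In WT cells 5 were higher and 6 lower in 3D than in 2D (median -0.45, all genes -0.058), and in ErbB2* cells 3 were higher and 4 lower (median 0.076, all genes -0.02). The interaction was positive for 3 and negative for 3 (median 0.33, all genes 0.019). Of all genes 22.3%, 13.1%, 29.6%, 22.4% and 15.1% were called, in that order of comparisons. Without WT 3D replicate 5 the called counts, higher then lower, were 8 and 3 between the lines in 3D, 8 and 1 in 2D, 5 and 7 by culture in WT cells, 4 and 6 in ErbB2* cells, and 4 and 3 for the interaction. Of all genes 27.7%, 23.2%, 33.7%, 36.2% and 21.5% were then called, in the same order. The medians of the other HIF targets were then 0.57 (all genes -0.013) between the lines in 3D, 0.43 (0.012) in 2D, -0.40 (-0.0093) by culture in WT cells, 0.076 (-0.02) in ErbB2* cells and 0.18 (-0.02) for the interaction.

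CA12 encodes a membrane carbonic anhydrase that helps to export acid, and it changed most of all members between cultures in WT cells. Its signals were 10.38, 10.58 and 10.74 in ErbB2* 3D, against 12.49, 12.31, 12.34, 12.33 and 12.47 in WT 3D. In 2D they were 10.16, 10.47 and 10.68 in ErbB2* cells, against 9.05, 9.69 and 9.89 in WT cells. All 5 WT 3D arrays lay above every other array, and all ErbB2* 2D arrays lay above all WT 2D arrays. CA12 was lower in ErbB2* cells in 3D, by a log2 difference of -1.82 (SE 0.142, adjusted p = 9.80e-10), and higher in 2D, by 0.87 (SE 0.135, adjusted p = 5.13e-05). In WT cells it was higher in 3D than in 2D by 2.80 (SE 0.142, adjusted p = 7.09e-13), and in ErbB2* cells the difference was 0.11 (adjusted p = 0.664), where another probe gave 0.62. The interaction was -2.69 (SE 0.196, adjusted p = 1.08e-09). NDRG1, a stress-responsive gene induced by hypoxia, was, like CA12, lower in ErbB2* cells in 3D and higher in 2D. Its signals were 9.66, 9.88 and 10.13 in ErbB2* 3D and 10.62, 10.41, 10.62, 10.67 and 11.53 in WT 3D, and 9.99, 10.24 and 10.48 in ErbB2* 2D and 8.92, 9.27 and 9.68 in WT 2D. Neither pair of lines overlapped: ErbB2* was lower in 3D and higher in 2D. The NDRG1 differences between the lines were -0.87 (SE 0.175, adjusted p = 0.000766) in 3D and 0.95 (SE 0.167, adjusted p = 0.000252) in 2D. By culture WT cells gave 1.48 (SE 0.175, adjusted p = 8.82e-07) and ErbB2* cells -0.34 (adjusted p = 0.164).

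ADM encodes adrenomedullin, a secreted vasodilator peptide. Its signals were 10.41, 11.04 and 11.13 in ErbB2* 3D, against 7.90, 8.12, 8.0, 8.06 and 9.09 in WT 3D, and 9.97, 10.21 and 10.30 in ErbB2* 2D, against 8.88, 8.96 and 9.19 in WT 2D. Every ErbB2* array lay above every WT array, and among WT 3D arrays only replicate 5 reached the WT 2D range. ADM was higher in ErbB2* cells in 3D by 2.72 (SE 0.169, adjusted p = 2.15e-11) and in 2D by 1.15 (SE 0.161, adjusted p = 1.40e-05). By culture 3D exceeded 2D in ErbB2* cells by 0.79 (SE 0.161, adjusted p = 0.000755) and was below it in WT cells, at -0.78 (SE 0.169, adjusted p = 0.00139). The interaction was 1.57 (SE 0.234, adjusted p = 4.26e-05). VEGFA, the gene of the main angiogenic growth factor, was dimmer, with 7.30, 7.54 and 8.25 in ErbB2* 3D and 7.03, 6.81, 6.77, 7.18 and 5.43 in WT 3D. The 3D groups did not overlap. Its 3D difference was 0.99 (SE 0.279, adjusted p = 0.0122), and 0.70 (adjusted p = 0.0262) without WT 3D replicate 5, where the probe was below background. Another VEGFA probe gave -0.071, and in 2D the brightest probe gave 0.11 (adjusted p = 0.882).

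BNIP3 and BNIP3L encode mitophagy receptors of the outer mitochondrial membrane, and both were higher in ErbB2* cells and lower in 3D. BNIP3 had signals of 11.02, 11.26 and 11.42 in ErbB2* 3D, against 10.50, 10.45, 10.33, 10.56 and 10.82 in WT 3D. In 2D it had 11.68, 11.88 and 12.01 in ErbB2* cells and 11.12, 11.40 and 11.59 in WT cells. The lines did not overlap in either culture. The BNIP3 differences between the lines were 0.70 (SE 0.109, adjusted p = 3.71e-05) in 3D and 0.50 (SE 0.104, adjusted p = 0.00143) in 2D, and between cultures -0.63 (SE 0.104, adjusted p = 7.93e-05) in ErbB2* and -0.83 (SE 0.109, adjusted p = 3.76e-06) in WT cells. BNIP3L gave 0.98 (SE 0.168, adjusted p = 0.000134) and 0.52 (SE 0.16, adjusted p = 0.0336) between the lines in 3D and 2D, in that order. Its WT 3D signals were 8.45, 8.12, 8.18, 7.83 and 6.98, below all other arrays, and its ErbB2* 3D signals were 8.70, 8.91 and 9.12. In 2D it read 9.35, 9.51 and 9.64 in ErbB2* and 8.80, 9.0 and 9.13 in WT cells. BNIP3L was lower in 3D than in 2D at -0.62 (SE 0.16, adjusted p = 0.00671) in ErbB2* cells and at -1.08 (SE 0.168, adjusted p = 3.93e-05) in WT cells. Another BNIP3L probe was not called in 2D, at 0.52 (adjusted p = 0.16), or by culture in ErbB2* cells, at -0.47 (adjusted p = 0.153). DDIT4, whose product REDD1 restrains mTORC1, separated all 4 groups. Its signals were 12.18, 12.34 and 12.44 in ErbB2* 3D, against 10.71, 10.89, 11.03, 11.11 and 9.44 in WT 3D, and 13.20, 13.31 and 13.69 in ErbB2* 2D, against 12.58, 12.87 and 12.92 in WT 2D. ErbB2* 2D was highest, then WT 2D, then ErbB2* 3D, then WT 3D, with no overlap between neighbours. DDIT4 was higher in ErbB2* cells in 3D by 1.69 (SE 0.201, adjusted p = 9.77e-07). In 2D it gave 0.57 (adjusted p = 0.054), called without WT 3D replicate 5 at 0.57 (adjusted p = 8.33e-05). By culture it was lower in 3D at -1.06 (SE 0.192, adjusted p = 0.000225) in ErbB2* cells and at -2.18 (SE 0.201, adjusted p = 1.89e-08) in WT cells, with an interaction of 1.12 (adjusted p = 0.00768).

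Transcriptional regulators among the targets followed separate courses. BHLHE40 encodes DEC1, a repressor of the circadian and differentiation programmes. It read 11.73, 11.93 and 12.03 in ErbB2* 3D, against 10.67, 10.32, 10.42, 10.54 and 9.98 in WT 3D, and 11.04, 11.23 and 11.55 in ErbB2* 2D, against 10.96, 11.15 and 11.25 in WT 2D. ErbB2* 3D lay above all other arrays, WT 3D lay below them, and the 2D groups overlapped. BHLHE40 was higher in ErbB2* cells in 3D by 1.51 (SE 0.113, adjusted p = 4.36e-10), against 0.11 (adjusted p = 0.617) in 2D. By culture it gave 0.64 (SE 0.107, adjusted p = 9.23e-05) in ErbB2* and -0.76 (SE 0.113, adjusted p = 2.14e-05) in WT cells, and the interaction was 1.40 (SE 0.156, adjusted p = 7.44e-07). KDM3A, a histone H3 lysine 9 demethylase, read 6.54, 6.69 and 6.85 in ErbB2* 3D and 6.75, 6.89, 7.11, 6.61 and 8.41 in WT 3D, and 6.56, 6.65 and 6.84 in ErbB2* 2D and 5.69, 5.89 and 6.68 in WT 2D. The lines overlapped in both cultures. In WT cells it was higher in 3D by 1.14 (SE 0.227, adjusted p = 0.00062), or 0.83 (adjusted p = 0.000103) without WT 3D replicate 5, which was the highest of all arrays. Its interaction was -1.09 (adjusted p = 0.0208), and -0.79 (adjusted p = 0.00534) without that array. MXI1, an antagonist of MYC, was dim and, with all arrays, called in 1 comparison, lower in 3D in ErbB2* cells at -0.38 (adjusted p = 0.0463). ANKRD37, an ankyrin repeat gene, was called in 1 comparison, higher in 3D in WT cells at 0.42 (adjusted p = 0.00149), a value that median scaling turned to -0.064. Median scaling without WT 3D replicate 5 did not turn its sign.

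Prolyl hydroxylases use oxygen to modify HIF or collagen. EGLN1, the main hydroxylase of HIF alpha, read 8.31, 8.52 and 8.92 in ErbB2* 3D and 8.21, 8.23, 8.20, 7.92 and 4.73 in WT 3D. Without WT 3D replicate 5, where the probe was below background, EGLN1 was higher in ErbB2* cells in 3D at 0.44 (adjusted p = 0.0135), and lower in 3D than in 2D at -0.33 (adjusted p = 0.0265) in ErbB2* and -0.46 (adjusted p = 0.00822) in WT cells. With all arrays the WT value was -1.14 (adjusted p = 0.0414), and the others did not pass. P4HA1 and P4HA2 encode catalytic subunits of the hydroxylase that matures collagen. P4HA2 had signals of 10.61, 10.67 and 10.85 in ErbB2* 3D, against 11.25, 11.36, 11.32, 11.35 and 10.38 in WT 3D. In 2D it had 9.48, 9.84 and 10.06 in ErbB2* cells, against 10.09, 10.26 and 10.36 in WT cells. In each line all 3D arrays lay above all 2D arrays, and ErbB2* lay below WT in 2D with no overlap. P4HA2 was lower in ErbB2* cells at -0.43 (SE 0.144, adjusted p = 0.0345) in 3D, which median scaling turned to 0.17, and at -0.45 (SE 0.137, adjusted p = 0.0311) in 2D. It was higher in 3D by 0.91 (SE 0.137, adjusted p = 2.74e-05) in ErbB2* and 0.89 (SE 0.144, adjusted p = 6.19e-05) in WT cells, with an interaction of 0.018 (adjusted p = 0.962). Of 2 other P4HA2 probes, 1 was called in the same 4 comparisons and the other, with all arrays, in none. P4HA1 was higher in ErbB2* cells in 3D, at 0.59 (adjusted p = 0.0133), and 0.82 (adjusted p = 4.07e-06) without WT 3D replicate 5. In 2D it gave 0.076 (adjusted p = 0.865). P4HA2 was the only called member that was lower in ErbB2* cells in 2D.

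**Figure D3:**
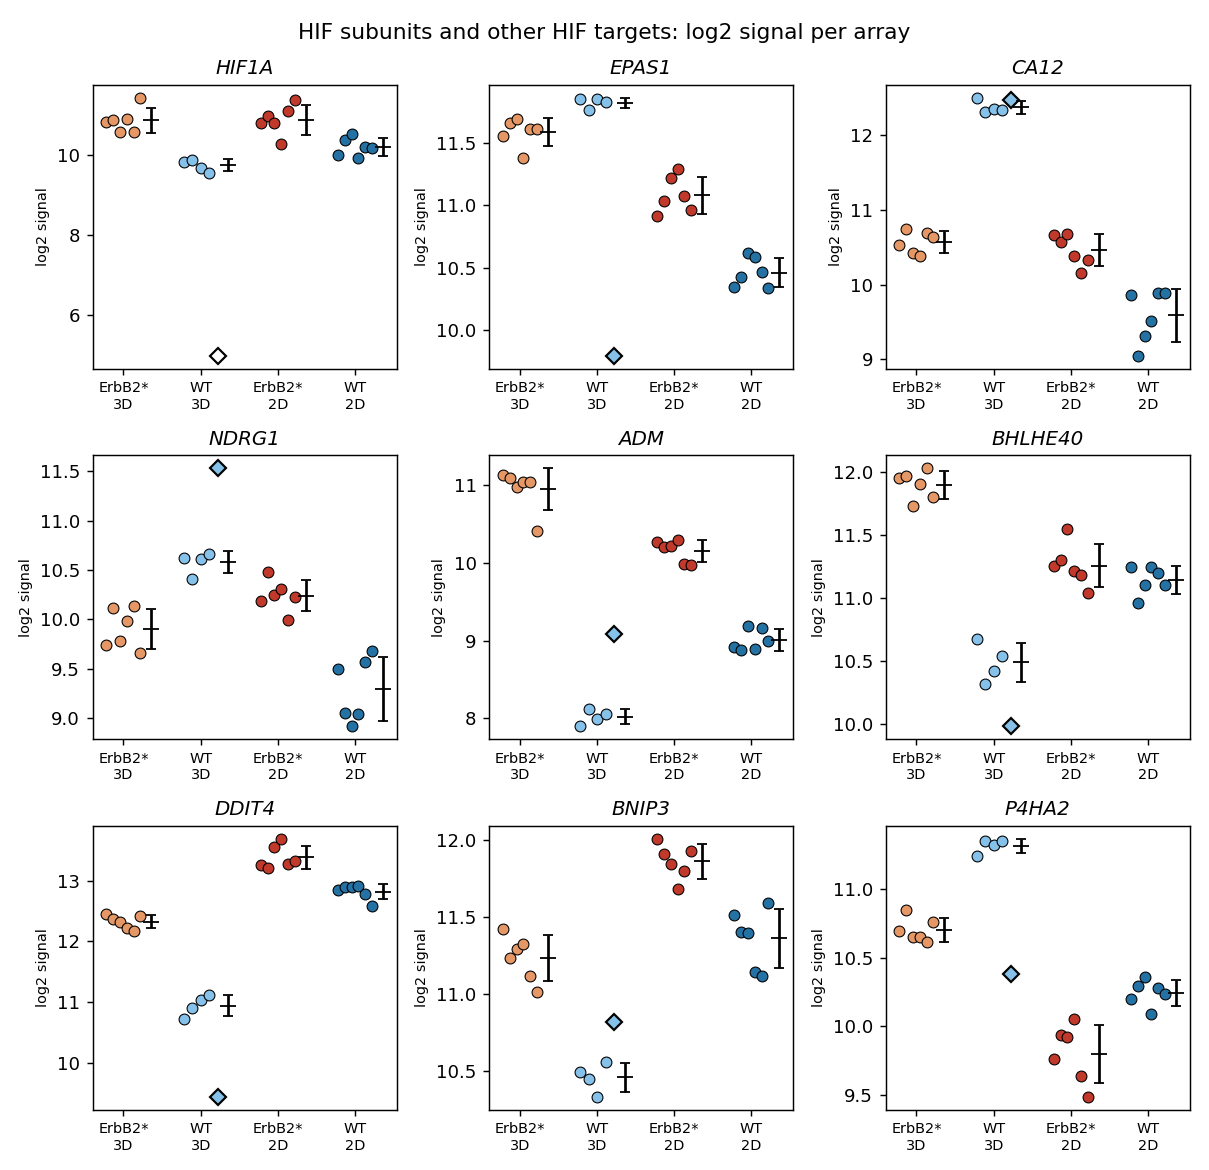
Log2 signal (vertical axis) of the HIF alpha subunits and 7 other HIF targets on each array, by group. Filled points were detected and open points were not, the diamond is WT 3D replicate 5, and the bar beside each group is the mean and SD without that array. CA12 and NDRG1 are highest in WT 3D, ADM and BHLHE40 in ErbB2* 3D, and DDIT4 separates all 4 groups.

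The ErbB2* difference depended on culture for 16 members. Of the 12 negative interactions, 9 were glycolysis genes (themselves 23 of the 39 tested members): SLC2A1 (-0.96), SLC2A3 (-1.48), HK1 (-0.56), HK2 (-1.23), PFKM (-1.07), PFKFB3 (-0.50), PFKFB4 (-1.35), ALDOC (-1.71) and PDK1 (-1.26). The others were CA12, NDRG1 and KDM3A. The 4 positive ones were ADM, BHLHE40, DDIT4 and PKM. Another probe gave an interaction of -0.068 (adjusted p = 0.944) for HK1, 0.50 (adjusted p = 0.567) for HK2 and 0.13 (adjusted p = 0.681) for PFKFB3, none called. SLC2A1, PFKM, PFKFB4, ALDOC, CA12 and NDRG1 were called in both cultures with opposite signs, higher in ErbB2* cells in 2D and lower in 3D, although SLC2A1 in 3D turned sign under median scaling. Without WT 3D replicate 5, PFKM, ALDOC, CA12 and NDRG1 kept both calls, and HK2, called lower in 3D, gained a higher call in 2D. SLC2A1 and PFKFB4 then kept the 2D call, with the 3D values given above. With that array also left out, median scaling did not turn the 3D sign of SLC2A1 or P4HA2. ADM rose in both cultures and more in 3D. P4HA2, BNIP3 and BNIP3L were called with the same sign in both cultures (P4HA2 in 3D turned sign under median scaling), with interactions of 0.018 (adjusted p = 0.962), 0.20 (adjusted p = 0.398) and 0.46 (adjusted p = 0.198) that did not pass. Further calls gained without WT 3D replicate 5 were HK2 (0.50), GAPDH (0.21), KDM3A (0.65) and MXI1 (0.37), all higher in ErbB2* cells in 2D. Other probes were not called there. GAPDH gave 0.022 and -0.018 (adjusted p = 0.907 for each), HK2 0.22 (adjusted p = 0.146) and MXI1 0.36 (adjusted p = 0.0981). The GAPDH rise in 2D thus rested on its brightest probe. By culture in ErbB2* cells HK2 (-0.45), PFKFB3 (-0.26) and NDRG1 (-0.34) were then lower and P4HA1 (0.26) higher in 3D. In WT cells P4HA1 (-0.48) and HIF1A (-0.46) were then lower in 3D. The interactions gained were PFKL (-0.74) and P4HA1 (0.74). Without that array the 3D difference between the lines was -1.80 for CA12, -0.68 for NDRG1, 2.93 for ADM, 1.38 for DDIT4 and 1.41 for BHLHE40, all still called.

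**Figure D4:**
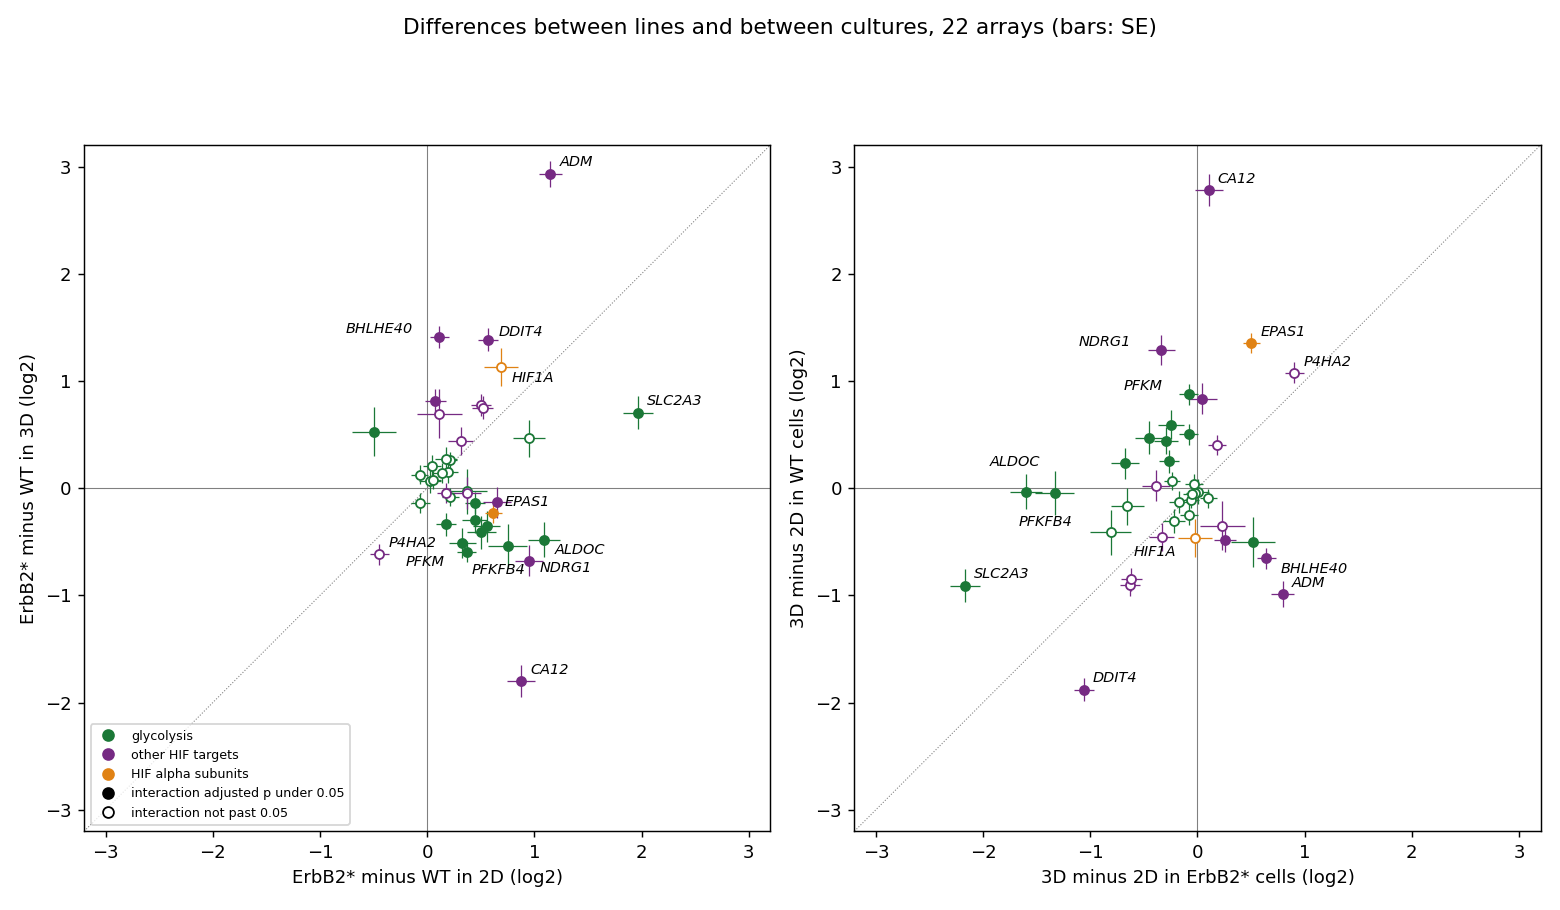
Log2 differences of the 39 members without WT 3D replicate 5, with SE bars. Left, ErbB2* minus WT in 2D (horizontal) and in 3D (vertical); right, 3D minus 2D in ErbB2* cells (horizontal) and in WT cells (vertical). Filled points passed the interaction test at an adjusted p under 0.05, and the dotted line marks equal differences. CA12 lies far off that line in both panels, and ALDOC, PFKFB4 and NDRG1 lie right of 0 and below 0 on the left.

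Ranked by group mean without WT 3D replicate 5, ErbB2* 3D was highest for 7 of the 39 members, WT 3D for 12, ErbB2* 2D for 20 and WT 2D for 0. Over all genes ErbB2* 3D was highest for 22%, WT 3D for 28.3%, ErbB2* 2D for 26.7% and WT 2D for 23%. Of the 20 members highest in ErbB2* 2D, 14 were glycolysis genes, which made up 23 of the 39 tested members. The lowest mean was in ErbB2* 3D for 8 members, in WT 3D for 20, in ErbB2* 2D for 1, which was P4HA2, and in WT 2D for 10. Over all genes ErbB2* 3D was lowest for 25.6%, WT 3D for 28.1%, ErbB2* 2D for 23.8% and WT 2D for 22.5%. These ranks describe means and include neighbours that do not differ beyond their spread. The WT 2D arrays were themselves uneven. For 15 members (38.5%) replicates 1, 5 and 6 did not overlap with replicates 2, 3 and 4, as for 30.8% of all genes, and the labels name no batch. PKM read 11.36 to 11.78 on replicates 1, 5 and 6 and 12.75 to 12.86 on the others. SLC2A1, SLC2A3, PFKFB4, ALDOC, CA12, NDRG1 and DDIT4 were also among them, so the size of their ErbB2* difference in 2D varied with the WT array.

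Neighbouring pathway genes were read from further lists, whose counts stand against 22.3% of all genes called between the lines in 3D, 13.1% in 2D, 29.6% by culture in WT cells and 22.4% in ErbB2* cells. Counts without WT 3D replicate 5 are given higher then lower, in that order of comparisons. They stand against 27.7%, 23.2%, 33.7% and 36.2% of all genes called without that array. Among HIF regulators 16 of 19 were tested, with 1 higher and 2 lower in ErbB2* cells in 3D, 1 and 0 in 2D, 2 and 3 by culture in WT cells and 1 and 2 in ErbB2* cells, and without that array 2 and 2, 1 and 1, 2 and 4, and 2 and 3. The co-activator inhibitor CITED2, itself a HIF target that restrains HIF, averaged 8.14 ± 0.301 (SD, n = 6) in ErbB2* 3D and 9.43 ± 0.126 (SD, n = 5) in WT 3D. In 2D it averaged 8.30 ± 0.242 in ErbB2* and 7.80 ± 0.17 in WT cells (SD, n = 6 each). CITED2 was lower in ErbB2* cells in 3D, at -1.29 (SE 0.14, adjusted p = 2.02e-07), and higher in 2D, at 0.49 (SE 0.133, adjusted p = 0.0135), with an interaction of -1.79. Its relative CITED4 took the opposite sign in 3D, at 1.65 (SE 0.24, adjusted p = 1.62e-05) (1.30 without WT 3D replicate 5). Among 27 of 32 further hypoxia genes, 9 rose and 3 fell in ErbB2* cells in 3D, 6 rose and 2 fell in 2D, 6 were higher and 7 lower in 3D than in 2D in WT cells, and 3 were higher and 4 lower in ErbB2* cells. Without that array the counts were 10 and 3, 6 and 2, 4 and 8, and 4 and 7. STC1, the gene of the secreted glycoprotein stanniocalcin 1, averaged 7.96 ± 0.176 in ErbB2* 3D and 5.15 ± 0.375 in WT 3D, and 10.18 ± 0.183 in ErbB2* 2D and 9.09 ± 0.261 in WT 2D. In WT 3D its probe was detected on 2 of 5 arrays. STC1 was higher in ErbB2* cells by 2.80 in 3D and 1.09 in 2D, and lower in 3D at -2.22 in ErbB2* and -3.94 in WT cells. STC2, its relative, was lower in 3D at -1.43 in ErbB2* and -2.56 in WT cells. LOX, the collagen cross-linking lysyl oxidase, was lower in ErbB2* cells in 3D, at -1.56 (SE 0.116, adjusted p = 4.38e-10), and higher in 3D in WT cells, at 1.62 (SE 0.116, adjusted p = 3.09e-10).

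Of the other glycolysis genes 10 of 20 were tested, with 2 higher and 0 lower in ErbB2* cells in 3D, 0 and 0 in 2D, 0 and 0 by culture in WT cells and 1 and 0 in ErbB2* cells. At an unadjusted limma p under 0.05, 2 of the 10 passed in 2D and 3 by culture in WT cells, again with no share of all genes at that cut. Without WT 3D replicate 5 the called counts were 2 and 1, 1 and 2, 0 and 1, and 3 and 0. HKDC1, a hexokinase-like gene, was detected on all ErbB2* 3D arrays and on no ErbB2* 2D array, and in ErbB2* cells it was at least 2.26-fold higher in 3D (adjusted p = 9.75e-08, measured log2 difference 1.63). Of the pyruvate dehydrogenase and TCA cycle genes 24 of 31 were tested, with 1 higher and 3 lower in ErbB2* cells in 3D, 3 and 0 in 2D, 4 and 1 by culture in WT cells and 3 and 5 in ErbB2* cells, and without that array 1 and 2, 3 and 0, 4 and 2, and 4 and 5. PDK4, a further pyruvate dehydrogenase kinase induced by fasting signals, averaged 9.98 ± 0.247 in ErbB2* 3D and 10.12 ± 0.669 in WT 3D, and 7.36 ± 0.238 in ErbB2* 2D and 5.67 ± 0.335 in WT 2D. PDK4 was higher in 3D than in 2D by 2.63 (SE 0.219, adjusted p = 3.53e-09) in ErbB2* cells and by 4.46 (SE 0.229, adjusted p = 9.11e-13) in WT cells. The anaplerotic enzyme gene PC was lower in ErbB2* cells in 3D, at -1.14 (SE 0.146, adjusted p = 2.65e-06). ACO1, the cytosolic aconitase, was higher in ErbB2* cells, by 0.65 in 3D and 1.04 in 2D. In the pentose phosphate pathway 9 of 11 genes were tested, with 1 higher and 1 lower in ErbB2* cells in 3D, 2 and 0 in 2D, 2 and 1 by culture in WT cells and 1 and 3 in ErbB2* cells, and without that array 1 and 1, 4 and 0, 4 and 1, and 3 and 3. H6PD, the microsomal enzyme at its entry, was higher in ErbB2* cells in 2D, at 0.96 (SE 0.243, adjusted p = 0.00847), and lower in 3D than in 2D in ErbB2* cells, at -1.01 (SE 0.243, adjusted p = 0.00341).

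**Figure D5:**
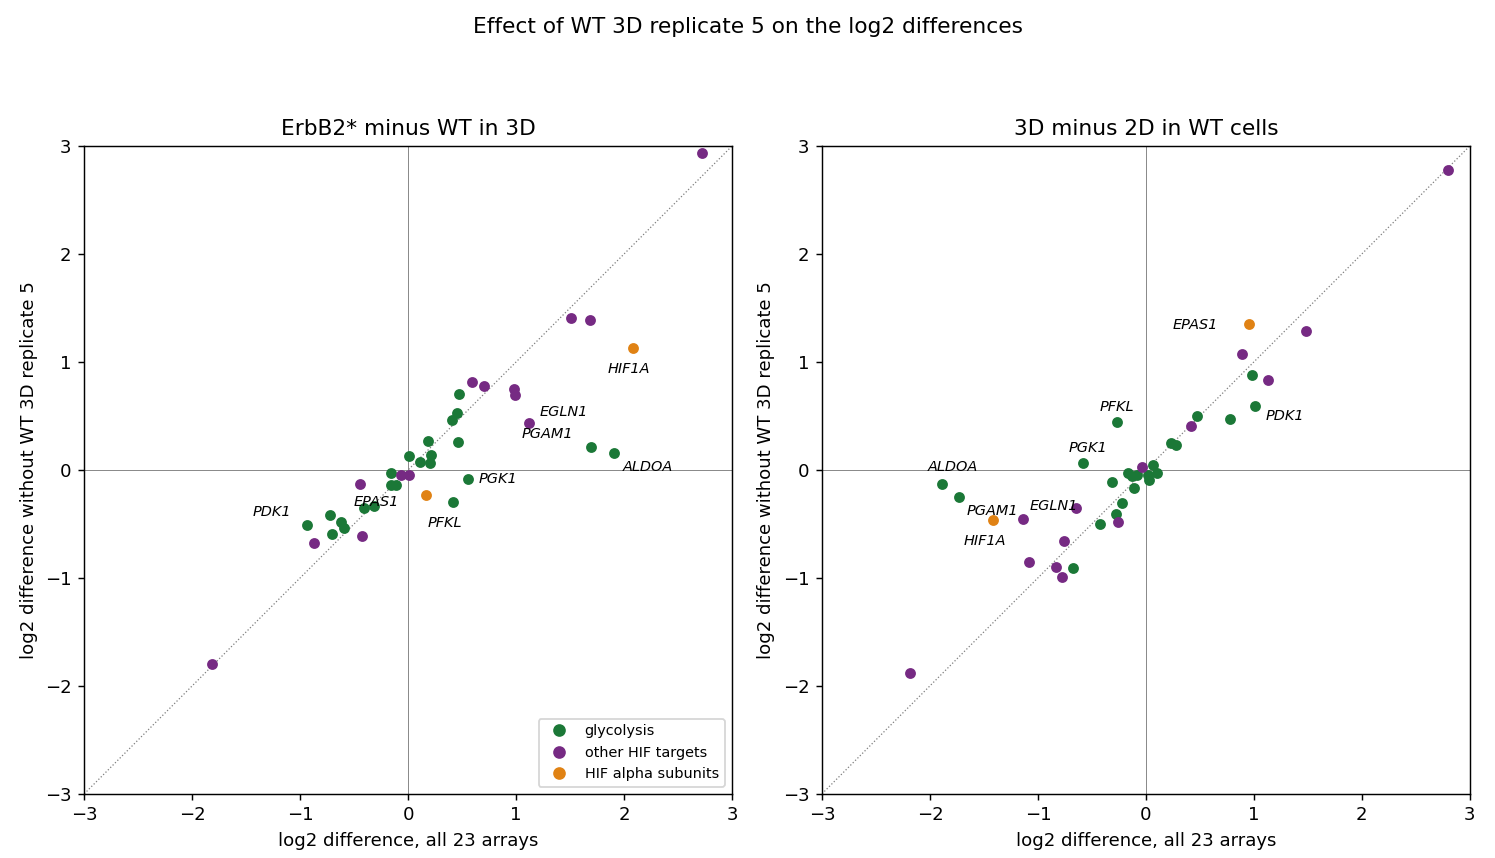
Log2 differences of the 39 members with all 23 arrays (horizontal) and without WT 3D replicate 5 (vertical), for ErbB2* minus WT in 3D (left) and 3D minus 2D in WT cells (right). The dotted line marks equal values, and the genes that moved most are named. ALDOA, PGAM1, HIF1A and EGLN1 move toward 0, while CA12, ADM and DDIT4 keep their direction.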

How the data were processed

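The 23 arrays were grouped by title. The scanner table gives raw signal intensity and a detection p-value per probe for each array, per the file headers. The authors' deposited normalized table gives log2 values per probe; how they were normalized is not stated per the labels, and it served as an alternative. Intensities were background-corrected with limma 3.58.1 (R 4.3.3) by normexp with negative-control moments inferred from detection p-values and an offset of 16, quantile-normalized and log2-transformed. Probe symbols came from the platform annotation: 28098 probes had 1 symbol, 13 several and 20692 none. Probes with a detection p under 0.05 on at least 5 arrays were kept, and the brightest stood for its gene. A limma model with a mean for each group was fitted over 10954 genes on all arrays, with two-sided tests and Benjamini-Hochberg adjustment, and an adjusted p under 0.05 was called. Members called with a log2 difference of at least 1 (at most 8 per direction) or a called interaction are given with their values, the others by name, and from further lists at most the 3 called genes of largest change per comparison. Members and lists were chosen with earlier results of these data known. A probe below background on a whole group gives only a bound. Alternatives were other background corrections, median scaling, deposited values, array weights, other detection filters, the mean over probes, only the groups compared, a replicate block and leaving out each array. The code was tested on simulated data. Same-numbered arrays were not treated as pairs.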

Additional observations from a re-analysis of the deposited data

Results flagged for a closer look

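An array far from the others of its group was found for 26 of 156 combinations of member and group, where chance alone gives about 1 in 20. WT 3D replicate 5 was that array for 20 members. It lay at 9.79 for HK2, 4.81 for PFKL, 10.74 for PFKM, 4.70 for ALDOA, 9.69 for ALDOC, 13.39 for GAPDH, 9.47 for PGK1, 4.68 for PGAM1, 12.06 for PKM, 7.75 for PDK1. It lay at 5.43 for VEGFA, 9.09 for ADM, 11.53 for NDRG1, 4.73 for EGLN1, 9.52 for P4HA1, 10.38 for P4HA2, 9.44 for DDIT4, 8.41 for KDM3A, 4.97 for HIF1A, 9.80 for EPAS1, all as log2 signals. The others were SLC2A3 at 6.40 on ErbB2* 3D replicate 6, HK1 at 12.85 on WT 2D replicate 5, HK1 at 13.46 on ErbB2* 3D replicate 2, PDK3 at 8.57 on ErbB2* 2D replicate 3, ADM at 10.41 on ErbB2* 3D replicate 6, ANKRD37 at 7.51 on ErbB2* 2D replicate 5.

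The ErbB2* minus WT difference differed between cultures, by the interaction term of the limma fit, for 16 members. The log2 interaction (3D minus 2D) was -0.96 for SLC2A1, -1.48 for SLC2A3, -0.56 for HK1, -1.23 for HK2, -1.07 for PFKM, -0.50 for PFKFB3, -1.35 for PFKFB4, -1.71 for ALDOC. It was -1.26 for PDK1, -2.69 for CA12, -1.82 for NDRG1, -1.09 for KDM3A, 0.95 for PKM, 1.57 for ADM, 1.12 for DDIT4, 1.40 for BHLHE40.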

How the results depend on the processing

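Counts are of called members, and the alternatives without WT 3D replicate 5 under deposited values or median scaling were chosen after seeing the data. Between ErbB2* and WT in 3D (19 called) median scaling gave 11 and a fit on only the groups compared 10. In 2D (13 called) median scaling gave 7, the authors' deposited values 23, array weights 21, only the groups compared 20, deposited values without WT 3D replicate 5 23, and median scaling without it 26. For 3D against 2D in WT cells (17 called) median scaling gave 8. In ErbB2* cells (13 called) median scaling gave 4, deposited values 22, array weights 20, only the groups compared 20, and deposited values without that array 21. For the interaction (16 called) median scaling gave 4. With each array left out in turn the counts ran 15 to 20 between the lines in 3D, 10 to 22 in 2D, 16 to 21 by culture in WT cells, 12 to 21 in ErbB2* cells and 14 to 19 for the interaction, and the highest in 2D (22) and in ErbB2* cells (21) came without WT 3D replicate 5. Reversals in 3D were SLC2A1 0.20, PFKFB3 0.26 and P4HA2 0.17 under median scaling, and EPAS1 -0.22 with deposited values, -0.24 with array weights and -0.23 with deposited values without that array. In WT cells by culture ANKRD37 gave -0.064 under median scaling, and PFKL 0.26 with deposited values, 0.43 with array weights and 0.27 with deposited values without that array, its range with single arrays left out being -0.48 to 0.44. The PGK1 interaction gave -0.27 with deposited values and -0.27 without that array too. Under median scaling without WT 3D replicate 5, 0 members reversed between the lines in 3D and 0 by culture in WT cells. The cause of the shifts listed here was not tested. With the replicate block the counts were 17 in 3D, 14 in 2D, 17 in WT cells, 13 in ErbB2* cells and 15 for the interaction. In the check for pairing, which did not use the whole-array correlations given above, same-numbered arrays correlated at -0.19 to 0.18 over 33 pairs. Different-numbered arrays gave -0.20 to 0.21 over 165 pairs. Since 2 of 23 arrays correlated best with their own number, the numbers were not taken as pairs. Number of arrays and signal over background limit precision: ENO2, PDK1, MXI1, HKDC1 and, in WT 3D, STC1 lay close to background.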
